A study of Homo sapiens with 4 samples.

Results

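The mevalonate pathway builds isoprenoids and sterols from acetyl-CoA, and 9 of its enzymes, from ACAT2 at the entry to FDFT1 at squalene, were followed in NCI-N87 cells that expressed the zinc finger protein ZSCAN18. NCI-N87 is an established human gastric carcinoma line. All 9 genes were found by name among the 60612 genes of the deposited table, and all 9 were among the 11822 genes expressed highly enough to be tested (FPKM reaching 1 in 2 or more libraries; FPKM is the number of fragments scaled to transcript length and to sequencing depth). They were chosen by their place in the pathway at a time when the fold changes of this same contrast were known, among them those of HMGCS1 and IDI1. Their differences between the groups are therefore given as a description, and no count of them is independent evidence for the pathway.

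The study measured RNA in 4 libraries by sequencing and asked how ZSCAN18 bears on the growth of gastric cancer cells. The ZSCAN18 group, 2 libraries, carried the puromycin-selectable vector PLVX-IRES-Puro-ZSCAN18, and the control, 2 libraries, carried the empty PLVX-IRES-Puro vector. Both groups were treated for 5 days, with a transfection of 24 hours and then 4 days of puromycin selection, so exposure to the vector and to the drug was common to all 4 libraries. The labels name no clones and do not say that the libraries came from separate cultures, so the errors measure only the spread between these libraries, which may be technical.

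The empty vector columns of the table carry the sample titles, whereas the other 2 columns match no title and were given to the ZSCAN18 group by elimination; which of them belongs to which sample is not known. ZSCAN18 stood at an FPKM of 116 and 112 in these columns, against 0.108 and 0.144 in the empty vector libraries. The table holds no counts. If the commonest low value is taken as 1 fragment, the libraries hold 23100000 and 23300000 fragments with ZSCAN18, against 23700000 and 24700000 with the empty vector. Most values did not bear this assumption out, since only 19.4 to 22.8% of them came out whole to within 0.02. These depths, and the errors drawn from them, are therefore uncertain. At the smallest, the counting error per kilobase of transcript would be 11.04% of the lowest MVK value and 3.39% of the lowest FDFT1 value. All 6 epithelial markers were at an FPKM of 1 or more in every library, with sums of 3364 and 3522 with ZSCAN18, against 4002 and 3744 with the empty vector. The sums hide opposite directions. KRT18 fell, with 675 and 682 with ZSCAN18, against 893 and 887 with the empty vector (limma adjusted p = 0.0408). CLDN4 rose, with 123 and 129 with ZSCAN18, against 76.4 and 84.3 with the empty vector (limma adjusted p = 0.0440), and the other epithelial markers did not pass. Sums of 4 blood markers were 4.02 and 4.70 with ZSCAN18, against 6.09 and 6.60 with the empty vector, those of 3 endothelial markers lay between 0.0633 and 0.158, and those of 5 fibroblast markers were 2.59 and 2.03 with ZSCAN18, against 1.77 and 0.773 with the empty vector. Of the 4 blood markers, 2 were at an FPKM of 1 or more in every library. CD68, 1 of these, was at 2.26 and 2.71 with ZSCAN18, against 4.22 and 4.53 with the empty vector. CD3E, PECAM1, CDH5, DCN and PDGFRB were under an FPKM of 0.1 in all libraries, and the part of other cell types in the results was not tested.

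The pathway starts with the cytosolic thiolase ACAT2, which joins acetyl-CoA units to acetoacetyl-CoA, and HMGCS1 then adds a further acetyl-CoA to give HMG-CoA. After its reduction, mevalonate is phosphorylated by MVK and PMVK, decarboxylated by MVD to isopentenyl diphosphate, and isomerised by IDI1. FDPS condenses these units to farnesyl diphosphate, from which GGPS1 makes the geranylgeranyl diphosphate used to anchor small GTPases, and FDFT1 makes squalene, the first product committed to sterols. Many of these genes are known targets of SREBP2, a membrane-bound transcription factor that is released when sterols in the endoplasmic reticulum run low and that acts together with the CCAAT-binding factor NF-Y.

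The bases before the transcription start are shown for the 4 enzymes that rose with ZSCAN18, and for GGPS1, whose groups overlapped. The genes shown were picked by their values in this contrast, so nothing is read from how their motifs differ. RefSeq promoters on build GRCh38.p14 were found for 7 of the 9 genes, in 12 windows since 3 genes have more than 1 start, and the 250 bases before each start were searched on both strands. The stretches below lie on the gene's strand from 5′ to 3′ and are limited to bases outside annotated exons, so a CCAAT box inside an exon is counted but not shown. For a gene with more than 1 start, the stretch comes from the window whose start lies nearest to the deposited gene start. Capitals mark CCAAT or its reverse complement.
HMGCS1, chr5:43313513-43313662, minus strand: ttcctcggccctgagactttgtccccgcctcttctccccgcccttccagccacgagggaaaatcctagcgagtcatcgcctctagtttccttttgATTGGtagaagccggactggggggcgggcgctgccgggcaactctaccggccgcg
MVD, chr16:88663162-88663297, minus strand: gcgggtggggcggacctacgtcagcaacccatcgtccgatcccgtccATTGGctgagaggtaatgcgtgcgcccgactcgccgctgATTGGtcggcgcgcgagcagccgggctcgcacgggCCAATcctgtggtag
IDI1, chr10:1049171-1049369, minus strand: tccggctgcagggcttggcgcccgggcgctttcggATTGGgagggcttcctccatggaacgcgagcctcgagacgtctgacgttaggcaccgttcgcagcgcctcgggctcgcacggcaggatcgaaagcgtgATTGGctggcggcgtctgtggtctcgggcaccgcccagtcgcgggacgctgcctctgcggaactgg
FDPS, chr1:155308616-155308747, plus strand: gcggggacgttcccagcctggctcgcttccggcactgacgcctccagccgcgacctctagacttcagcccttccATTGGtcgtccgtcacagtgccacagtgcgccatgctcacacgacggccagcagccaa
GGPS1, chr1:235326969-235327159, plus strand: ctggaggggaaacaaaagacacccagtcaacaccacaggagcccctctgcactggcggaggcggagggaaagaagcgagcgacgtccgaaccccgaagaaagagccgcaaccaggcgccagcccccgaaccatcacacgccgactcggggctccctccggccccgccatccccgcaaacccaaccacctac

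CCAAT stood in 7 of the 12 windows, and 32.0% of all 35116 promoter windows held it. Counted by gene, it stood in at least 1 window of 6 of the 7 genes, PMVK being the gene without it. The share by gene over all promoters was not counted. Genes with several windows had more chances to hold CCAAT, so the count by gene cannot be set against the 32.0%. At least 2 copies stood in 6 of the 12 windows, while 9.53% of all windows held as many. These windows belong to 5 genes, with 5 copies for MVK, 3 for MVD, 3 for FDPS and 2 for HMGCS1. MVK, with the most copies, was not among the enzymes called as rising. IDI1 had 2 or 3 copies in windows that overlap in part. The limit of 2 was chosen after the values were seen. GGPS1 had a single copy, in 1 of its 3 windows, which is not the window printed. In GENCODE release 29, where MMAB and PMVK have exons that reach beyond the ends given in the deposited table, all 250 bases of the MVK window lie in an exon of the divergent neighbour MMAB and all 250 of the PMVK window in an exon of PMVK, so neither is printed. The letters TCACNCCAC, a form of the sterol regulatory element, stood in 0 of the 12 windows and in 0.883% of all windows. GGGCGG, the GC box, stood in 11 of the 12 and in 42.6% of all windows, and CACGTG, the E-box, in 0 of the 12 and in 6.34% of all windows. The printed window of GGPS1 was the 1 of the 12 without a GC box, while the other windows of GGPS1 held 2 each. Each motif was counted on its own, also where it shared bases with another. These are matches of letters in short windows, with no measurement of binding.

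Of the 9 enzymes, 4 rose with ZSCAN18 (HMGCS1, IDI1, MVD and FDPS) and 0 fell, at an adjusted p under 0.05 in limma. The same threshold was passed by 1.77% of all 11822 tested genes in either direction and by 0.795% in the upward direction. The median log2 fold change of the 9 was 0.71, beside 0.04 over all tested genes. In 7 of the 9 both ZSCAN18 libraries lay above both empty vector libraries, an order shown by 35.8% of tested genes. In 1 of the 9, PMVK, both lay below, as did 24.4% of tested genes, and for GGPS1 the groups overlapped. The contrast was known when the genes were chosen, and nothing is read from these shares. All 4 calls needed the full set of libraries: without any single one of the 4, 0 of the 9 enzymes passed, while 2106 to 2387 of all tested genes had an unadjusted p under 0.05 in limma.

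**Figure D1:**
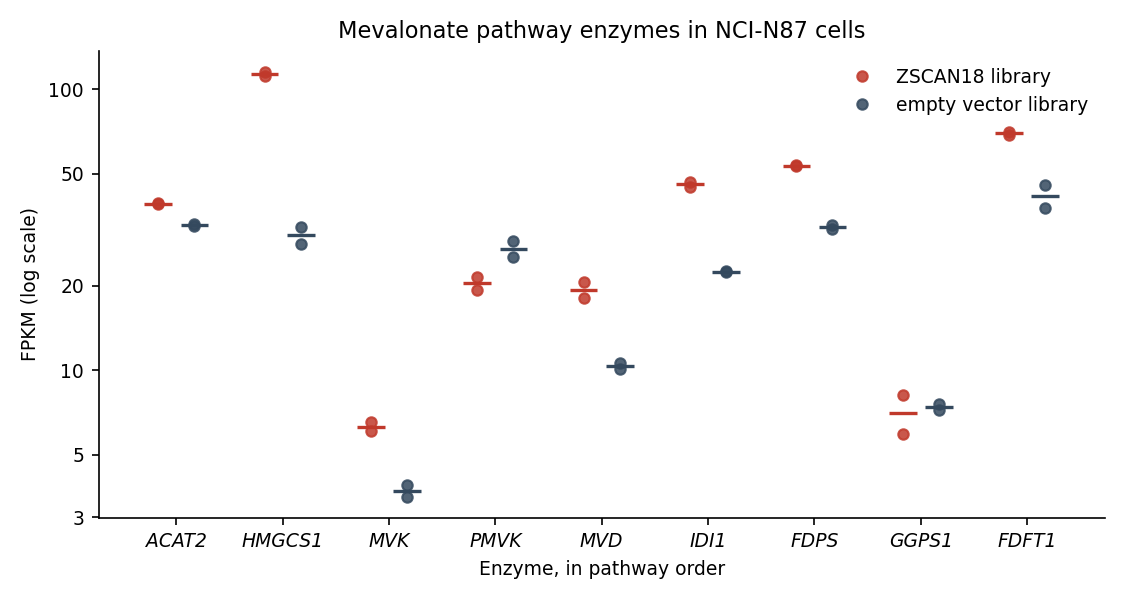
FPKM of the 9 enzymes (log axis) in pathway order, with a point for each library, a line at the mean of each group, and ZSCAN18 left of the empty vector. HMGCS1 stands at 115 and 111 with ZSCAN18 against 28.1 and 32.2 with the empty vector, PMVK lies lower with ZSCAN18, and the points of GGPS1 overlap.

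HMGCS1 (ENSG00000112972, chromosome 5, 43287470 to 43313512, minus strand; GRCh38 coordinates here and below) showed the greatest difference of the group. It stood at an FPKM of 115 and 111 with ZSCAN18, against 28.1 and 32.2 with the empty vector. The groups lay far apart, since the lower ZSCAN18 value was 3.46 times the higher empty vector value, while libraries of a group differed by at most 1.14 times. On the log2(FPKM + 1) scale, used for every log2 fold change of the limma fit, it rose by 1.88 (SE 0.080, adjusted p = 0.0180), and 7 of the tested genes had a larger value. A higher level in every cell and a larger share of cells at a high level cannot be told apart in these bulk libraries. HMGCS1 catalyses the step that draws acetoacetyl-CoA into the pathway. AC114947, an opposite-strand gene that shares 703 exonic bases with it, was listed at the table's minimum of 0.0001 in all 4 libraries.

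ACAT2 (ENSG00000120437, chromosome 6, 159762045 to 159779112, plus strand), the enzyme before it, differed far less. ACAT2 is the cytosolic acetoacetyl-CoA thiolase and not the sterol acyltransferase that once shared its name. Its FPKM was 39.0 and 39.3 with ZSCAN18, against 33.1 and 32.4 with the empty vector. The groups did not overlap, but the log2 fold change was 0.25 (SE 0.046, adjusted p = 0.0813) and did not pass. The ratio of HMGCS1 to ACAT2 was 2.95 and 2.84 in the ZSCAN18 libraries, against 0.850 and 0.992 in the empty vector libraries, so the order of these enzymes by level differed between the groups. Its 3′ end meets that of TCP1, a chaperonin subunit on the opposite strand, over 397 of the 4299 exonic bases annotated for ACAT2. TCP1 stood at 86.8 and 79.7 with ZSCAN18, against 72.6 and 71.4 with the empty vector (log2 fold change 0.21, adjusted p = 0.144). SOD2-OT1, also opposite, shares 1458 of those bases in GENCODE release 29 but overlaps ACAT2 over only 288 bases in the coordinates of the deposited table, and it reached at most 0.638. No source used here states whether reads were counted by strand.

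The kinases that follow went in opposite directions by value, and neither passed. MVK (ENSG00000110921, chromosome 12, 109573255 to 109598117, plus strand), which phosphorylates mevalonate, had an FPKM of 6.06 and 6.54 with ZSCAN18, against 3.55 and 3.91 with the empty vector. Both ZSCAN18 values lay above both others, and the log2 fold change was 0.63 (SE 0.081, adjusted p = 0.0574). For this gene, the lowest of the group in level, the added pseudocount of 1 holds the value down, and with a pseudocount of 0.01 it was 0.76. MMAB, a cobalamin enzyme gene whose start faces that of MVK and which shares 306 exonic bases with it, had 3.90 and 3.58 with ZSCAN18, against 3.56 and 3.14 with the empty vector (log2 fold change 0.12, adjusted p = 0.430).

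PMVK (ENSG00000163344, chromosome 1, 154924740 to 154936719, minus strand), which adds the second phosphate, had an FPKM of 19.3 and 21.5 with ZSCAN18, against 28.7 and 25.2 with the empty vector. It was the 1 enzyme of the 9 with both ZSCAN18 libraries below both empty vector libraries. The log2 fold change was -0.39 (SE 0.095, adjusted p = 0.113), which did not pass, although its value was at the percentile 6.497 of all tested genes. The ratio of PMVK to MVK was 3.19 and 3.28 in the ZSCAN18 libraries, against 8.09 and 6.45 in the empty vector libraries. No other gene of the table overlaps PMVK.

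MVD (ENSG00000167508, chromosome 16, 88651935 to 88663161, minus strand), the decarboxylase that makes isopentenyl diphosphate, rose. Its FPKM was 18.1 and 20.5 with ZSCAN18, against 10.1 and 10.6 with the empty vector. The groups did not overlap, and the log2 fold change was 0.84 (SE 0.083, adjusted p = 0.0408). MVD was the call nearest to the threshold, and without the intensity trend in the variance model its adjusted p was 0.0588. With ZSCAN18 MVD stood almost level with PMVK (ratios of 0.935 and 0.956), and with the empty vector well below it (0.352 and 0.419).

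IDI1 (ENSG00000067064, chromosome 10, 1039152 to 1049170, minus strand) converts isopentenyl diphosphate to its allylic isomer. Its FPKM was 44.8 and 46.8 with ZSCAN18, against 22.5 and 22.3 with the empty vector. Libraries of a group differed by at most 1.04 times and the groups by 2.04 times, with a log2 fold change of 0.9996 (SE 0.051, adjusted p = 0.0231). The ratio of IDI1 to MVD was 2.48 and 2.28 with ZSCAN18, against 2.23 and 2.11 with the empty vector, so these neighbouring steps kept nearly the same proportion. IDI2, the second isomerase gene, was listed at the table's minimum of 0.0001 in all 4 libraries, and 3 pseudogenes of IDI1 reached at most 0.0320. IDI2-AS1, on the opposite strand and sharing 643 exonic bases with IDI1, stayed under 0.0676 in every library.

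FDPS (ENSG00000160752, chromosome 1, 155308748 to 155320666, plus strand), the farnesyl diphosphate synthase, rose as well. Its FPKM was 53.2 and 53.6 with ZSCAN18, against 31.7 and 32.8 with the empty vector, a separation of 1.62 times between the nearest libraries of the 2 groups. The log2 fold change was 0.71 (SE 0.047, adjusted p = 0.0313). RUSC1-AS1, a transcript on the opposite strand that shares 693 of the 3718 exonic bases of FDPS, had 2.07 and 1.99 with ZSCAN18, against 0.670 and 0.595 with the empty vector, and it rose too (log2 fold change 0.89, adjusted p = 0.0409). Without strand in the counting, reads of the 2 genes could not be told apart in the shared bases. The 8 pseudogenes of FDPS in the table reached at most 0.260, so reads counted for them were few beside those of FDPS.

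The branch enzyme GGPS1 (ENSG00000152904, chromosome 1, 235327350 to 235344532, plus strand) was not separated between the groups. Its FPKM was 8.19 and 5.91 with ZSCAN18, against 7.56 and 7.19 with the empty vector, so the ZSCAN18 libraries stood on either side of the others. The log2 fold change was -0.07 (SE 0.158, adjusted p = 0.797), and it was 0.13 without the second ZSCAN18 library. This SE is the largest of the 9, and a change of moderate size would not have been detectable. A gene listed as TBCE (ENSG00000285053) runs through GGPS1 on the same strand and shares 1422 of its 3809 exonic bases. That gene had 2.595 and 2.07 with ZSCAN18, against 0.856 and 0.846 with the empty vector, and how reads were split between the pair is uncertain. ARID4B, on the opposite strand, shares 138 exonic bases with GGPS1 and had 5.02 and 3.96 with ZSCAN18, against 3.53 and 3.99 with the empty vector (log2 fold change 0.20, adjusted p = 0.379). The ratio of GGPS1 to FDPS was 0.154 and 0.110 with ZSCAN18, against 0.239 and 0.219 with the empty vector.

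FDFT1 (ENSG00000079459, chromosome 8, 11795573 to 11839304, plus strand), squalene synthase, joins a pair of farnesyl diphosphates head to head. Its FPKM was 68.8 and 70.2 with ZSCAN18, against 37.7 and 45.5 with the empty vector. The ZSCAN18 libraries lay above, but the empty vector libraries differed by 1.21 times from each other, the widest gap of that group among the 9. The log2 fold change of 0.73 (SE 0.104) was close to that of FDPS, yet its adjusted p was 0.0629. FDFT1 and FDPS kept a like proportion, with ratios of 1.29 and 1.31 with ZSCAN18, against 1.19 and 1.39 with the empty vector. Between the competing users of farnesyl diphosphate, the ratio of FDFT1 to GGPS1 was 8.40 and 11.9 with ZSCAN18, against 4.98 and 6.33 with the empty vector. With 2 libraries a group an exact permutation test of any such ratio cannot go below a p of 0.333, so these ratios were not tested.

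**Figure D2:**
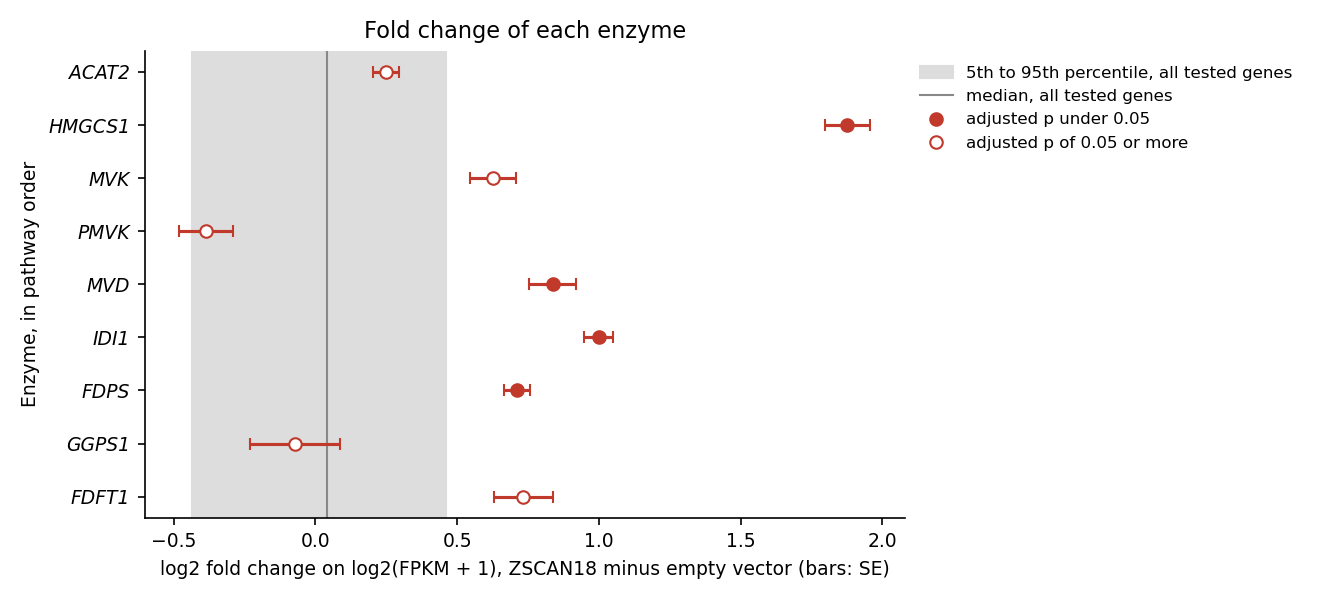
Log2 fold change on log2(FPKM + 1), ZSCAN18 minus empty vector, of the 9 enzymes in pathway order with bars of 1 SE; filled points passed at an adjusted p under 0.05, and the grey band spans the 5th to 95th percentile of all tested genes (-0.44 to 0.46). HMGCS1 (1.88), IDI1 (0.9996), MVD (0.84) and FDPS (0.71) are filled, FDFT1 and MVK lie right of the band without passing, and ACAT2, PMVK and GGPS1 lie inside it.

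In the authors' deposited table, whose model no source used here describes, HMGCS1 had a log2 fold of 1.91 with a q-value of 3.96e-23, and IDI1 one of 1.03 with a q-value of 3.16e-06. These were the 2 of the 9 that the authors' deposited table marks as significant, a mark that 2.23% of the tested genes carry. The mark goes with a p-value under 0.05 and an absolute log2 fold of at least 1, a rule that all 512 marked rows meet. By the authors' deposited q-values, MVD (8.49e-04), FDPS (0.00568) and FDFT1 (0.00705) were also under 0.05, while MVK (0.0797), PMVK (0.496), ACAT2 (0.797) and GGPS1 (0.943) were not. FDFT1 is thus under 0.05 in the authors' deposited table and above it in limma.

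As FPKM are scaled by length, the levels of the enzymes can be set side by side. With ZSCAN18, HMGCS1 was the most abundant transcript of the 9, followed by FDFT1, FDPS, IDI1 and ACAT2, and the ranges of these 5 did not overlap. PMVK and MVD overlapped each other in the ZSCAN18 libraries, and so did GGPS1 and MVK at the foot of the order. With the empty vector FDFT1 stood at the top at 41.6 ± 5.56 (SD, n = 2). ACAT2 at 32.8 ± 0.460, FDPS at 32.2 ± 0.755, HMGCS1 at 30.2 ± 2.87 and PMVK at 27.0 ± 2.47 then followed with ranges that overlapped from neighbour to neighbour. IDI1, MVD, GGPS1 and MVK came last there, without overlap, and MVK, at the foot, was at 6.30 ± 0.337 with ZSCAN18, against 3.73 ± 0.253 there (SD, n = 2 each).

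The summed FPKM of the 9 enzymes was 372 and 376 with ZSCAN18, against 203 and 212 with the empty vector. HMGCS1 made up 30.9 and 29.7% of that sum with ZSCAN18, against 13.9 and 15.2% with the empty vector. Without HMGCS1 the sums were 258 and 264 with ZSCAN18, against 175.0 and 179.9 with the empty vector, so the other 8 together were also higher. PMVK held 5.18 and 5.71% of the sum with ZSCAN18, against 14.1 and 11.9% with the empty vector. The share of MVD, at 4.85 and 5.46% with ZSCAN18, against 4.98 and 4.98% with the empty vector, was nearly level.

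**Figure D3:**
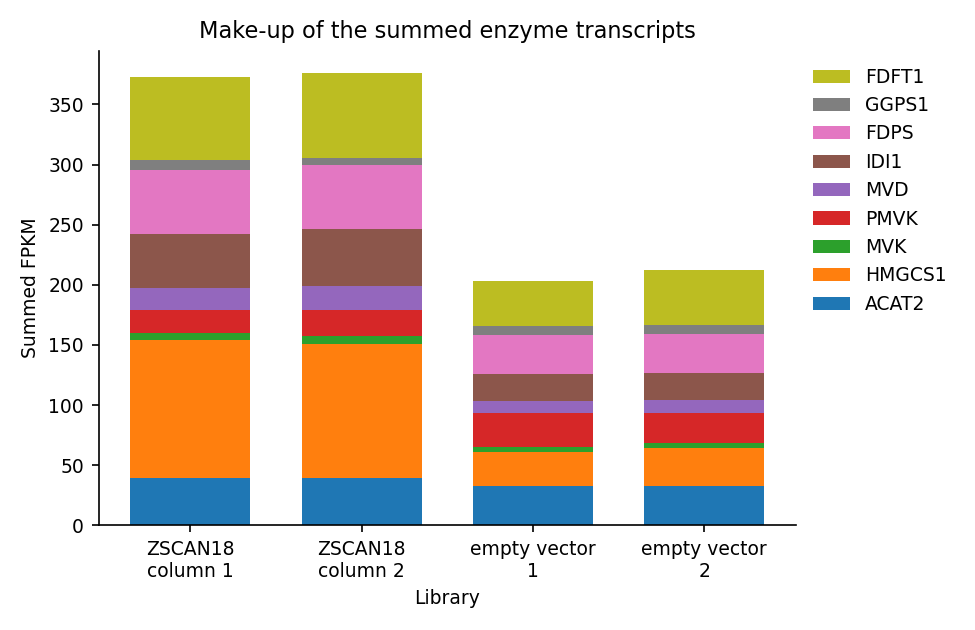
Summed FPKM of the 9 enzymes in each library, with the ZSCAN18 libraries left of the empty vector libraries and 1 colour for each enzyme. The bars reach 372 and 376 with ZSCAN18, against 203 and 212 with the empty vector, and the HMGCS1 segment is the one that differs most in size.

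The later steps of sterol synthesis were described by a list of 11 enzymes between squalene and cholesterol. All 11 had a positive log2 fold change, as did 57.1% of all tested genes. Of the 11, 3 rose and 0 fell, where 0.795% of all tested genes rose, and in 10 both ZSCAN18 libraries lay above both empty vector libraries, where 35.8% of all tested genes did. Their median was 0.70, beside 0.71 for the 9 mevalonate enzymes and 0.04 for all tested genes. MSMO1, the sterol C4 methyl oxidase, rose to 111 and 109.5 with ZSCAN18, against 38.3 and 37.9 with the empty vector (log2 fold change 1.51, SE 0.044, adjusted p = 0.0159). SC5D, a sterol desaturase, was at 13.6 and 13.3 with ZSCAN18, against 6.34 and 6.67 with the empty vector, and rose by a log2 of 0.95. LSS, the cyclase that forms lanosterol, was at 10.98 and 11.5 with ZSCAN18, against 5.91 and 6.32 with the empty vector, and rose by 0.78. The fourth by unadjusted p, DHCR7, the last reductase on the way to cholesterol, was at 52.2 and 44.9 with ZSCAN18, against 25.5 and 28.1 with the empty vector and did not pass (log2 fold change 0.83, adjusted p = 0.0540). Without any single library 0 of these 11 passed, and the difference between the medians of the 2 lists was not tested.

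Genes that draw on the isoprenoids for other ends formed a list of 19, with enzymes of protein prenylation and its later processing, of dolichol and ubiquinone synthesis and of tRNA isopentenylation. Of these 0 passed in limma, where 1.77% of all tested genes passed in either direction, so nothing is read from the 0 among 19 genes. An unadjusted p below 0.05 in limma was found for 4 of them, and for 26.8% of all tested genes. Positive log2 fold changes numbered 14 and negative ones 5, beside 57.1% positive over all tested genes, and their median log2 fold change was 0.09. COQ2, which attaches the ubiquinone side chain, had 3.80 and 3.58 with ZSCAN18, against 5.34 and 6.36 with the empty vector (log2 fold change -0.54, adjusted p = 0.0815). ZMPSTE24, the protease that matures prenylated lamin A, had 29.9 and 21.6 with ZSCAN18, against 42.7 and 44.6 with the empty vector (log2 fold change -0.76, adjusted p = 0.0994). RABGGTB, a subunit of the Rab geranylgeranyl transferase, had 12.7 and 12.7 with ZSCAN18, against 10.6 and 11.005 with the empty vector (0.21, adjusted p = 0.126). TRIT1, which modifies tRNA, had 5.68 and 5.22 with ZSCAN18, against 3.65 and 4.59 with the empty vector (0.34, adjusted p = 0.181).

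A further list of 7 genes covered the supply of acetyl-CoA and the use of ketone bodies, and also held IDI2, the second isomerase gene. IDI2 was not tested. Of the other 6 genes, 2 rose and 0 fell, where 0.795% of all tested genes rose. The acetate-using synthetase ACSS2 rose to 14.4 and 12.5 with ZSCAN18, against 4.79 and 4.03 with the empty vector (log2 fold change 1.42, SE 0.114, adjusted p = 0.0361). The citrate lyase ACLY, another source of acetyl-CoA, rose to 198 and 191 with ZSCAN18, against 132 and 140 with the empty vector (0.52, SE 0.052, adjusted p = 0.0409). AACS, which activates acetoacetate in the cytosol, had 5.21 and 5.05 with ZSCAN18, against 4.52 and 4.41 with the empty vector (0.16, adjusted p = 0.211). The mitochondrial thiolase ACAT1 was at 5.70 and 6.55 with ZSCAN18, against 6.70 and 6.31 with the empty vector (-0.08, adjusted p = 0.614), so its groups overlapped. The calls of ACSS2 and ACLY also ended without any single library.

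**Figure D4:**
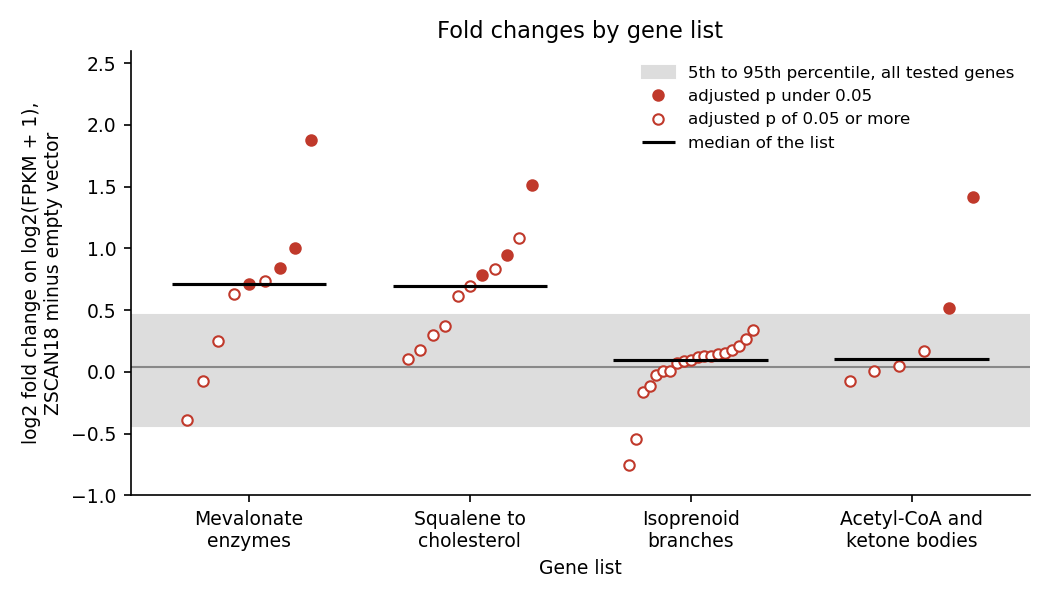
Log2 fold changes on log2(FPKM + 1), ZSCAN18 minus empty vector, of the tested genes of 4 lists, each point a gene, filled where the adjusted p was under 0.05, with a black line at each list's median and a grey band for the 5th to 95th percentile of all tested genes. The medians are 0.71 for the mevalonate enzymes, 0.70 from squalene to cholesterol, 0.09 for the isoprenoid branches and 0.11 for acetyl-CoA and ketone bodies.

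The tested genes whose profile over the 4 libraries lay nearest to that of HMGCS1 were taken by Euclidean distance of log2(FPKM + 1) centred on the empty vector mean. They were IDS, a lysosomal sulfatase, ZBTB38, a zinc finger protein, HMOX1, the heme oxygenase, SNORD16, a small nucleolar RNA, and SCD, the fatty acid desaturase, at distances of 0.159 to 0.258. Those nearest to IDI1 were EMC3-AS1, an antisense transcript, TRAK1, a mitochondrial transport adaptor, RBM47, an RNA-binding protein, STARD4, a sterol carrier, and TP53INP1, a stress-induced protein, at distances of 0.0710 to 0.0979. STARD4 had 18.9 and 18.2 with ZSCAN18, against 9.13 and 8.53 with the empty vector, and IDI1 had 44.8 and 46.8 with ZSCAN18, against 22.5 and 22.3 with the empty vector. Since the added pseudocount compresses low values, low genes whose FPKM differ by a larger ratio between the groups can stand near. EMC3-AS1 had 1.498 and 1.533 with ZSCAN18, against 0.212 and 0.237 with the empty vector. SNORD16 had 2.28 and 2.74 with ZSCAN18, against 0.0222 and 0.0225 with the empty vector.

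**Figure D5:**
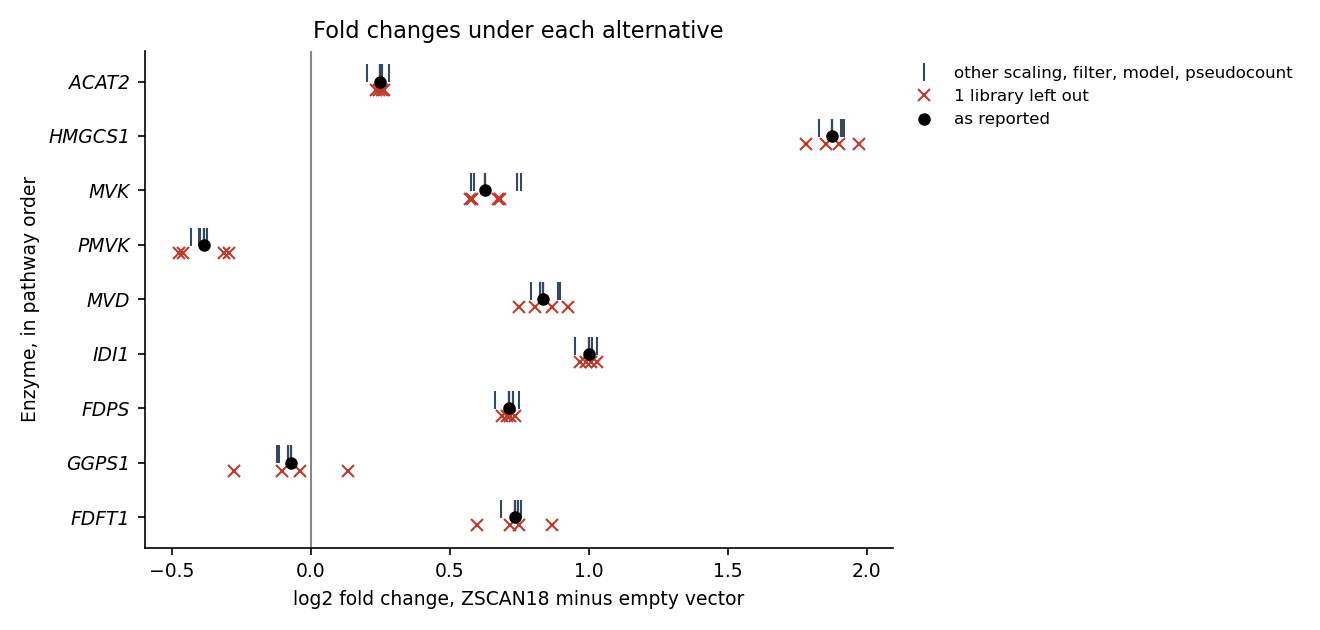
Log2 fold change, ZSCAN18 minus empty vector, of the 9 enzymes as reported (black points), with other pseudocounts, filters, scalings and variance models (bars) and with 1 library left out (crosses). HMGCS1 stays between 1.78 and 1.97 and IDI1 between 0.95 and 1.03, whereas GGPS1 crosses 0, from -0.28 to 0.13.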

How the data were processed

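RNA of 4 libraries, 2 a group, was sequenced; the submitters' processing notes name StringTie 1.3.4d and HISAT2 2.0.4, FastQC 0.10.1 and cutadapt 1.9, and also DESeq2 and edgeR 3.2.5, giving no roles. Per the file headers, the authors deposited an FPKM per library, a linear fold change (ratio), its log2 value, and p-values and q-values from their own model, which were only described here. An FPKM of 0.0001 is the table's minimum. No source used here names the build; of 58394 gene identifiers found in GENCODE release 29 (GRCh38), 72.7% matched in start and end and 99.8% started no more than 100 kb apart, and coordinates are called GRCh38 on that ground.

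Since FPKM are no counts, limma 3.58.1 (R 4.3.3) was fitted to log2(FPKM + 1) for the 11822 genes whose FPKM reached 1 in 2 or more of the 4 libraries, with a group term and eBayes with an intensity trend (2 residual, 2.01 prior degrees of freedom). Benjamini-Hochberg adjustment of the two-sided p-values ran over all tested genes at a threshold of 0.05. This scale understates changes of low genes. The fit was tested on simulated data with 200 changed genes in each of 5 runs. It recovered 0% of the genes changed by a log2 of 0.5, 56.1% at a log2 of 1 and 86.2% at a log2 of 2. A gene that did not pass may therefore still differ between the groups. These shares hold for the simulated setting only. In the data, 26.8% of all tested genes had an unadjusted p under 0.05 in limma, and ACLY passed at a log2 fold change of 0.52. Changes near a log2 of 0.5 could thus pass here.

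The 9 enzymes, the lists, the motifs and the alternatives were chosen with earlier results of these data known. Named genes are the enzymes, up to 4 tested genes of each other list with the smallest unadjusted p, the 5 nearest profiles to HMGCS1 and to IDI1, and genes overlapping an enzyme or within 1 kb of it (those not named did not pass or were too low to be tested), with IDI2 named after its values were seen. Some genes of the lists are not reported here. Proteins were not compared here. Alternatives were pseudocounts of 0.1 and 0.01, no filter, an FPKM of at least 1 in all libraries, median-of-ratios scaling, quantile normalization, eBayes without trend, the column number as a block, and each library left out; those for the acetyl-CoA list were added after seeing the data.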

Additional observations from a re-analysis of the deposited data

How the results depend on the processing

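All 9 fold changes kept their direction under 12 alternatives, except that of GGPS1, which turned to 0.13 without the second ZSCAN18 library and was -0.28 without the first. The calls were less stable: HMGCS1, IDI1 and FDPS lost theirs in 6 of 12 alternatives and MVD in 7, while the other 5 enzymes gained none. These were the 4 fits with a library left out, the block, and no filter, with eBayes without trend added for MVD. With a library left out, all tested genes gave 0 to 1 calls (2106 to 2387 with limma's unadjusted p below 0.05), the mevalonate, squalene-to-cholesterol and acetyl-CoA lists 0 each, and the median of the 9 lay between 0.60 and 0.73, with 0.60 without the first empty vector library. The lone library of a group is assumed there to vary like the other group. Adjusted p of HMGCS1 in those fits and the block was 0.121 to 0.182.

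With the replicate number of the columns as a block, 1 gene of all tested passed (2628 with limma's unadjusted p below 0.05) and 0 of each list. Same-numbered columns did not deviate together (r = 0.034 across 11822 genes, which are not independent replicates). With 2 libraries a group, this correlation cannot settle whether the libraries were paired. Without a filter 1 gene passed (4241 unadjusted) and 0 of each list, with 30288 genes to adjust over. Without trend 99 genes passed, and 1 rather than 2 of the acetyl-CoA list. Calls higher and lower numbered 94 and 115 as reported, 92 and 189 after median-of-ratios scaling, and 103 and 158 after quantile normalization; the causes were not tested. FPKM without counts gave no counting intervals.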
